A study of Mus musculus with 18 samples.

Results

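The SOCS and cytokine feedback genes examined here are Socs1, Socs2, Socs3, Cish, Pim1, Pim3, Pias1 and Ptpn1, followed in mouse liver RNA after ischemia-reperfusion or sham surgery. They were chosen by name as a functional group, and their Ensembl identifiers were matched to symbols in GENCODE vM21. All 8 were found among the 47729 gene rows of the deposited table, and all 8 passed the filter that kept 12686 genes for testing (a mean normalized count of at least 10 over the libraries). The main comparison sets 9 ischemia-reperfusion libraries against 9 sham libraries, with genotypes mixed in both. The genotype of a single library is not known, so the mix in a smaller set of libraries is not known either.

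Cytokines such as IL-6, IL-22, interferons and growth hormone act through receptors that carry JAK kinases, which phosphorylate STAT transcription factors. STATs in turn switch on genes that restrain the same signal. The SOCS proteins and CIS (encoded by Cish) bind phosphorylated receptors or JAKs through an SH2 domain and, through a SOCS box, recruit a ubiquitin ligase. PIAS1 is a SUMO ligase that binds activated STATs, and PTP1B (encoded by Ptpn1) removes phosphate from tyrosines of JAK2, TYK2 and the insulin receptor. PIM1 and PIM3 are serine/threonine kinases whose transcripts are commonly raised by STAT signalling. In liver, Socs3 is best known as a target of STAT3 under IL-6 type cytokines, and Socs2 and Cish as targets of STAT5 under growth hormone.

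The labels describe 18 liver samples from wt, Il22-/- and Il22bp-/- mice, with 3 samples for each of the 6 combinations of genotype and surgery. Il22 encodes a cytokine that acts on hepatocytes, and Il22bp is the name used for its soluble binding protein, whose gene symbol is Il22ra2. Ischemia-reperfusion stops and then restores blood flow through the liver. Its duration, the time of sampling, and the strain, age and sex of the mice are not stated in the labels. Column headers of the table are IR or W with a number, and carry no genotype. The 9 W columns were read as the 9 sham samples by elimination, because only 6 samples are wild type, and this reading holds only if every column belongs to the series. Whether each sample is a separate animal is not stated, so p-values measure the spread between these samples. Whether the deletions are present in all cells is likewise not given.

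Reads recovered from the normalized values summed to between 10176617 and 12558179 in the ischemia-reperfusion libraries and between 10716890 and 12202421 in 8 of the sham libraries, the recovery for W1 not being verified. Il22 was at 0 in all 18 libraries, and Il22ra2 reached a normalized count of 10 in 3 libraries of each surgery (32.6 to 47.6 and 29.9 to 56.0), with the rest at 1.0 or below, so neither value assigns a genotype. Sex-linked transcripts were unevenly spread over the surgeries. All 9 sham libraries had Xist, the RNA of the inactive X chromosome, at 1751 to 5336, and summed counts of 4 Y-linked genes (Ddx3y, Eif2s3y, Kdm5d and Uty) of at most 2.1. Among the ischemia-reperfusion libraries 3 had the same pattern (IR3, IR6 and IR9), 4 had Y-linked sums of 734.5 to 1034 with Xist at or below 11.5 (IR1, IR2, IR4 and IR7), and 2 had both (IR5 and IR8, Xist 541.9 and 964.1, Y-linked sums 744.7 and 443.7). Surgery and sex cannot be told apart for the libraries with Y-linked reads, so each member is also given over the 12 libraries without Y-linked reads, 3 against 9. That split was chosen after seeing the data, and the genotypes of its 3 ischemia-reperfusion libraries are not known.

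Promoter windows from 250 bases before to 50 bases after the annotated start were available in the RefSeq promoter table (GRCm38.p6) for 7 of the 8 members. They were searched on both strands for the GAS element bound by STATs, TTCNNNGAA, which reads the same on both strands. A form with 4 bases between TTC and GAA, and the core of an IRF-bound interferon element (GAAA, any 2 bases, GAAA), were also searched, the last chosen after the sequences had been seen. The 3 windows that held a match are shown, those of Socs3 and Cish for the GAS element and that of Socs1 only for the IRF core. Socs2 had no window and was not searched. Any link between a motif and a gene's change with surgery was not tested. Capitals mark the matches, and each window reads 5′ to 3′ on the strand of its gene, Socs3 at chr11:117969317-117969616 (minus), Cish at chr9:107296409-107296708 (plus) and Socs1 at chr16:10785487-10785786 (minus).
Socs3: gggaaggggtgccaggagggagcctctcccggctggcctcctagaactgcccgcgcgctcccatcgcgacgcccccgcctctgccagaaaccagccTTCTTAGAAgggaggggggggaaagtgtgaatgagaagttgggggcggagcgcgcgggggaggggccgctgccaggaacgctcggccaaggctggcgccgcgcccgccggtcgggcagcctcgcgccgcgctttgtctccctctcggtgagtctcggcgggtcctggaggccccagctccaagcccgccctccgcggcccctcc
Cish: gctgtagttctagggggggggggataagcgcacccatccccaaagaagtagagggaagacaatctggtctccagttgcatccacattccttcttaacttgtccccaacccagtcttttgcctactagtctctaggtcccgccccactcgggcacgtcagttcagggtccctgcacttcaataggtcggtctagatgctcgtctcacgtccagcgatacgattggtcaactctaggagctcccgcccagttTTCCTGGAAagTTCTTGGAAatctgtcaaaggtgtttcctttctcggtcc
Socs1: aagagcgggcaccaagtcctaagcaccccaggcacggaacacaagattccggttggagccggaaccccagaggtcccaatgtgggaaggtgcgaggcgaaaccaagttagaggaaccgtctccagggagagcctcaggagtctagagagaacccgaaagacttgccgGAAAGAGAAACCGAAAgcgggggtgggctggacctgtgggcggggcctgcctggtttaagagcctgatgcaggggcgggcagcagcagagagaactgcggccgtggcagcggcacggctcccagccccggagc
Socs3 held 1 GAS element whose first base lies at -154 from the annotated start, and Cish held 2, beginning at 0 and 11. The 2 IRF cores of Socs1, beginning at -83 and -77, overlap each other. The 3-spacer GAS element was present in 8.30% of the 32851 promoter windows of this length, the 4-spacer form in 6.95%, and the IRF core in 3.44%. Windows of Pim1 (2 starts), Pim3, Pias1 and Ptpn1 held none of the 3 motifs, and no match says only that these letters are absent from the window.

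With ischemia-reperfusion, Socs3, Socs1, Pim1 and Ptpn1 rose, Socs2 and Pias1 fell, and Cish and Pim3 did not pass the test. The largest of these changes was in Socs3, which was 18.3-fold higher. Calls were made with limma on log2(normalized count + 1) at a Benjamini-Hochberg adjusted p below 0.05 over all 12686 genes. The 4 of 8 members that rose stand beside 38.3% of all tested genes called higher, and the 2 that fell beside 37.7% called lower. With this much of the transcriptome called, the members' share is near the background and is no result about the group. Every ischemia-reperfusion library lay above every sham library for 3 members (Socs3, Pim1 and Ptpn1), against 19.9% of all tested genes, and below for 1 (Pias1), against 20.3%. The median log2 fold change was 0.86 over the members and 0.02 over all tested genes.

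**Figure D1:**
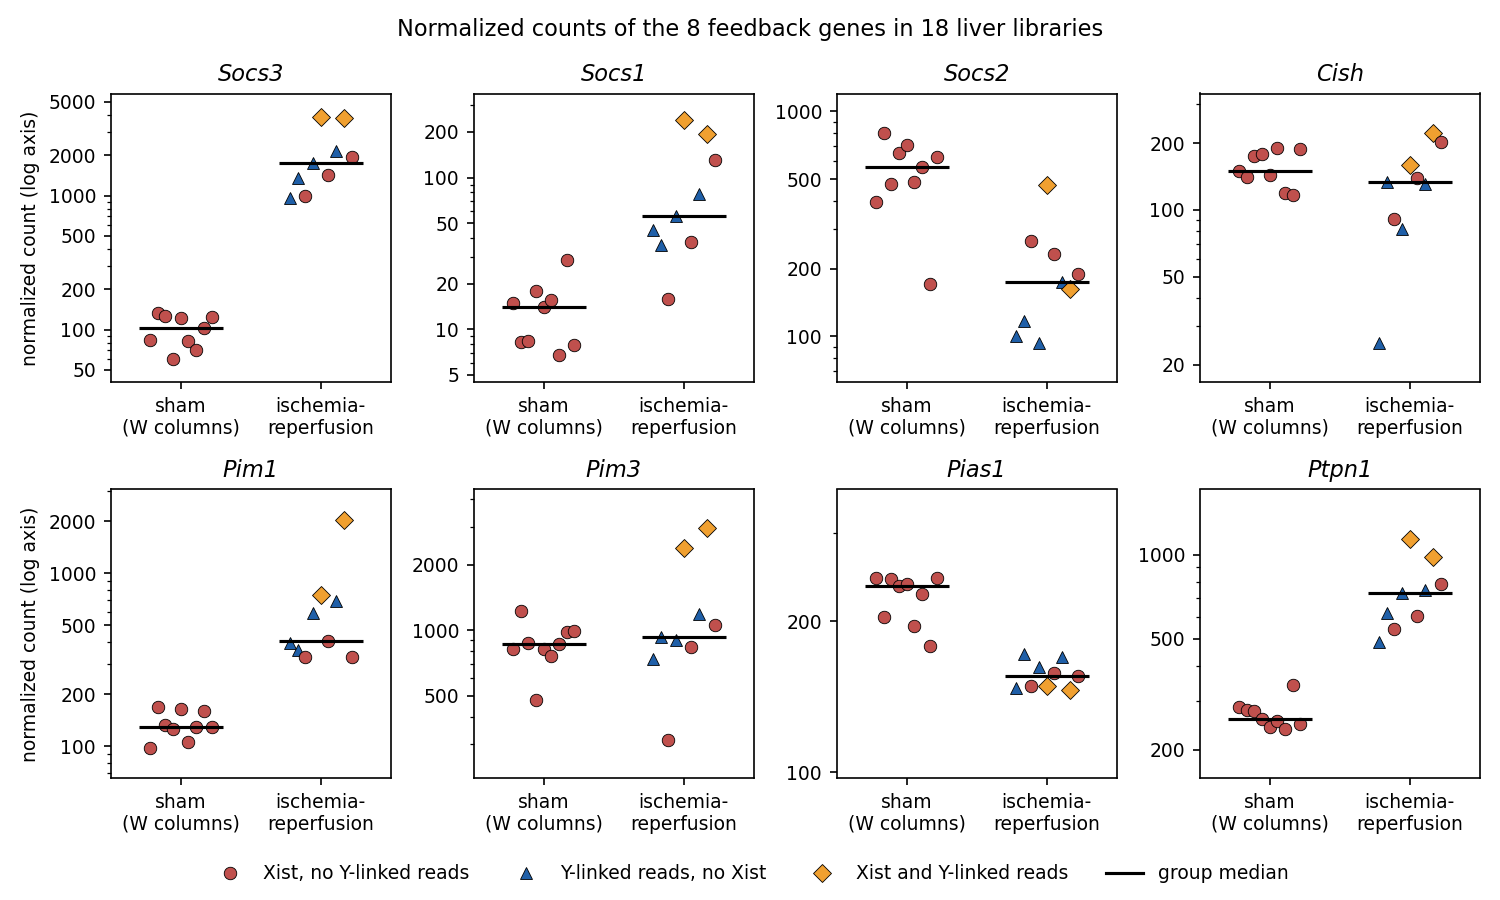
Normalized count (log axis) of each member in every library, by surgery, with bars at the group medians and symbols by sex-linked transcripts. Socs3, Pim1 and Ptpn1 do not overlap between surgeries and lie higher after ischemia-reperfusion, Pias1 does not overlap and lies lower, and the diamonds (IR5 and IR8) are the 2 highest ischemia-reperfusion libraries for Socs3, Socs1, Pim1, Pim3 and Ptpn1.

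Socs3 (ENSMUSG00000053113, chromosome 11, 117966079 to 117970047, minus strand, GRCm38), the inhibitor of gp130-type receptor signalling, had normalized counts from 60.8 to 133.8 with a median of 102.0 in the sham livers. After ischemia-reperfusion it ranged from 952.8 to 3849 with a median of 1738. The lowest ischemia-reperfusion library (IR1) was thus far above the highest sham library, and IR5 and IR8 were the highest at 3849 and 3778. Its log2 fold change was 4.19 ± 0.25 (SE, n = 9 against 9, limma adjusted p = 1.23e-11), which placed Socs3 at rank 69 from the top of the tested genes. An exact two-sided permutation test over the 18 libraries gave p = 4.11e-05, the smallest it can give. In bulk liver, a change in the cells that make a transcript and a change in transcript per cell cannot be told apart, and this holds for all members.

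Socs1 (ENSMUSG00000038037, chromosome 16, 10782240 to 10785536, minus strand), the inhibitor of JAKs downstream of interferon receptors, was the least abundant member in sham liver, at 6.655 to 28.5 with a median of 13.85. Over the 8 sham libraries whose reads were recovered this corresponds to 6 to 26 reads, and the part of counting error in its sham spread was not tested. After ischemia-reperfusion it ranged from 15.7 to 239.3 with a median of 56.2. IR3 was the only ischemia-reperfusion library inside the sham range, and the other 8 lay above it. It changed by a log2 fold of 2.36 ± 0.43 (SE, limma adjusted p = 4.43e-05, exact permutation p = 0.000123). Its highest value was 15.3 times its lowest within the ischemia-reperfusion group, the widest span of any member.

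Socs2 (ENSMUSG00000020027, chromosome 10, 95385362 to 95417180, minus strand), which limits growth hormone receptor signalling, fell. Its sham counts ran from 171.2 to 799.6 with a median of 566.8, and its ischemia-reperfusion counts from 94.0 to 468.2 with a median of 173.7. The groups overlapped through 2 libraries: the sham library W8 was the lowest of its group at 171.2 with the next (W1) at 397.4, and IR5 was the highest of its group. Of the sham libraries 7 lay above every ischemia-reperfusion library. The log2 fold change was -1.50 ± 0.30 (SE, limma adjusted p = 0.000119, exact permutation p = 0.000987), a level 2.83-fold lower. The 4 ischemia-reperfusion libraries with Y-linked reads and no Xist had the lowest median, 108.7, against 231.5 in the 3 with Xist alone. This difference between libraries of 1 surgery is given as values, without a test.

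Cish (ENSMUSG00000032578, chromosome 9, 107296026 to 107302784, plus strand), the founding member of the SOCS family and a STAT5 target like Socs2, did not pass the test. Its sham counts were 116.3 to 189.6 (median 149.7) and its ischemia-reperfusion counts 25.1 to 223.4 (median 134.0). The ischemia-reperfusion libraries lay on both sides of the sham range, with 3 below it (IR1, IR3 and IR4) and 2 above it (IR8 and IR9). The log2 fold change of -0.42 ± 0.29 (SE, limma adjusted p = 0.196) had a 95% interval from -1.03 to 0.19, which includes the estimate for Pias1 as well as 0. Cish overlaps an antisense gene and a pseudogene on the minus strand. Gm17041 was at 0 in all libraries, and Gm17040 had a median of 13.3 in sham and 1.888 in ischemia-reperfusion; how reads were assigned by strand is not given in the sources used here.

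Pim1 (ENSMUSG00000024014, chromosome 17, 29490753 to 29496112, plus strand) rose in every ischemia-reperfusion library. Sham counts were 98.1 to 167.5 with a median of 129.8, and ischemia-reperfusion counts 326.1 to 2030 with a median of 406.0. IR8 stood far above the rest of its group, the next being IR5 at 751.7. The log2 fold change was 2.01 ± 0.27 (SE, limma adjusted p = 1.02e-06, exact permutation p = 4.11e-05), or 4.04-fold. The antisense gene that overlaps Pim1, Gm26885, stayed at or below 5.212 in all libraries.

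Pim3 (ENSMUSG00000035828, chromosome 15, 88862186 to 88865726, plus strand) was the most abundant member per exon length in sham liver and did not pass the test. Its counts were 475.1 to 1225 in sham (median 864.1) and 312.4 to 2962 after ischemia-reperfusion (median 926.0). IR8 and IR5 were above the sham range, IR3 was below it, and the other 6 were inside. The log2 fold change of 0.30 ± 0.31 (SE, limma adjusted p = 0.378) had a 95% interval from -0.34 to 0.94. Without IR5 and IR8 the estimate was -0.09 (adjusted p = 0.733), and over the libraries without Y-linked reads -0.38 (adjusted p = 0.268), so even its sign rested on those libraries.

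Ptpn1 (ENSMUSG00000027540, chromosome 2, 167932057 to 167979385, plus strand) rose 2.67-fold. Its counts were 237.4 to 340.2 in sham, with a median of 258.0, and 487.4 to 1140 after ischemia-reperfusion, with a median of 731.4. The groups did not overlap, and the spread was narrow, with a coefficient of variation of 11.8% in sham and 28.6% after ischemia-reperfusion. The log2 fold change was 1.42 ± 0.13 (SE, limma adjusted p = 8.85e-09, exact permutation p = 4.11e-05).

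Pias1 (ENSMUSG00000032405, chromosome 9, 62878368 to 62987924, minus strand) was the steadiest member and fell in every ischemia-reperfusion library. Sham counts were 178.9 to 244.4 (median 235.0) and ischemia-reperfusion counts 145.9 to 171.8 (median 155.5). The fall was 1.42-fold, with a log2 fold change of -0.50 ± 0.08 (SE, limma adjusted p = 4.35e-06, exact permutation p = 4.11e-05). Its coefficient of variation was 6.28% after ischemia-reperfusion against 10.9% in sham. The other 7 members all varied more between ischemia-reperfusion libraries than between sham libraries.

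**Figure D2:**
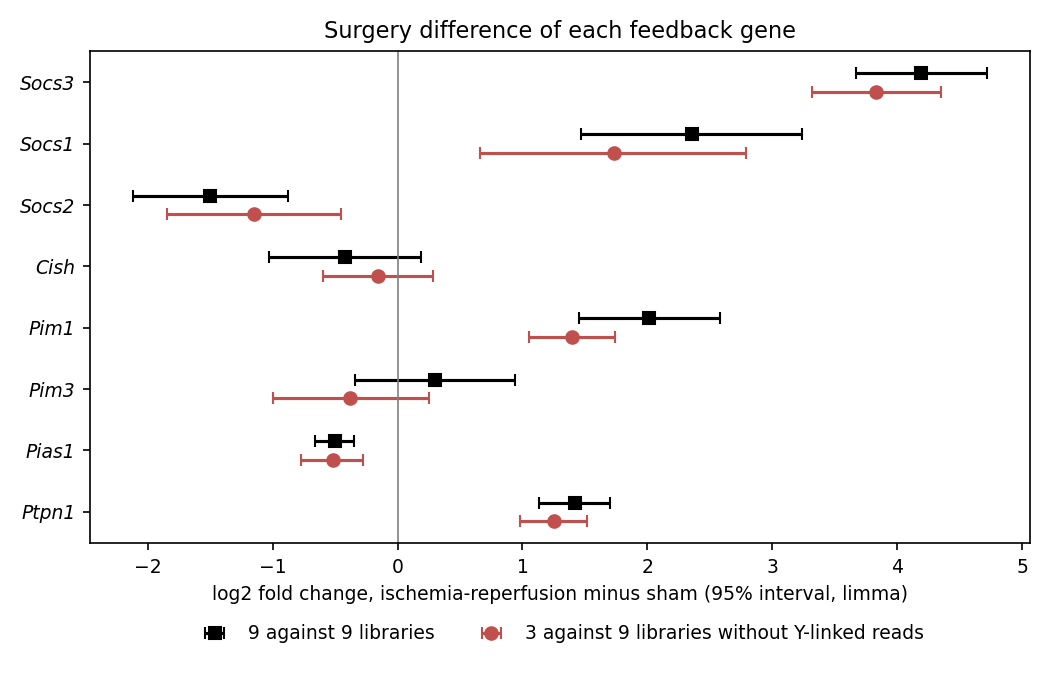
Log2 fold change of each member, ischemia-reperfusion minus sham, with its 95% interval from limma, for 9 against 9 libraries (squares) and for the 3 against 9 libraries without Y-linked reads (circles). The intervals of Cish and Pim3 cross 0 in both, and Socs3 is at 4.19 and 3.83.

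Scaling set the size of the smaller changes. The authors' size factors left the sham libraries with larger normalized totals (11457888 to 12650569) than the ischemia-reperfusion libraries (9088021 to 11588384). With equal totals instead, the median of all genes moved up by 0.24 on the log2 scale, and 62.0% of all calls were higher in place of 50.4%. Pias1 was then at -0.27 (limma adjusted p = 0.00965) and Socs2 at -1.26. Relative to the median of all genes in that fit they were at -0.52 and -1.52, and no member changed its direction or its side of the threshold.

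Over the 12 libraries without Y-linked reads, the same 4 members rose and the same 2 fell, beside 33.1% of tested genes called higher and 35.2% called lower. Socs3 was 14.3-fold higher (log2 3.83 ± 0.24 SE, limma adjusted p = 4.09e-09), and Ptpn1 2.38-fold. Pim1 was 2.63-fold higher (log2 1.40 ± 0.16 SE, limma adjusted p = 1.73e-06) and Socs1 3.31-fold (log2 1.73 ± 0.50 SE, limma adjusted p = 0.00641), both more than 1.5 times smaller than over all 18 libraries. Socs2 was 2.22-fold lower (limma adjusted p = 0.00582) and Pias1 1.44-fold lower (limma adjusted p = 0.0008). Each of these estimates rests on 3 ischemia-reperfusion libraries.

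Levels can be set side by side per kilobase of annotated exon sequence, with the limit that the union of exons can be longer than the transcript made in liver (9531 bases for Socs2, 2891 for Socs3). On this scale sham liver had Pim3 highest, with a median of 356 normalized counts per kilobase, clear of the range of all other members. Socs2 (59.5), Ptpn1 (46.6), Pim1 (38.6), Socs3 (35.3), Pias1 (34.4) and Cish (23.3) followed, and each overlapped its neighbour in this order. Socs1 was lowest at 4.76, below the range of Cish. After ischemia-reperfusion Socs3 had the highest median at 601 per kilobase, overlapping Pim3 at 382, and Ptpn1 (132) and Pim1 (121) came next. Pias1 (22.8), Cish (20.9), Socs1 (19.3) and Socs2 (18.2) formed a lower set whose ranges overlapped.

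**Figure D3:**
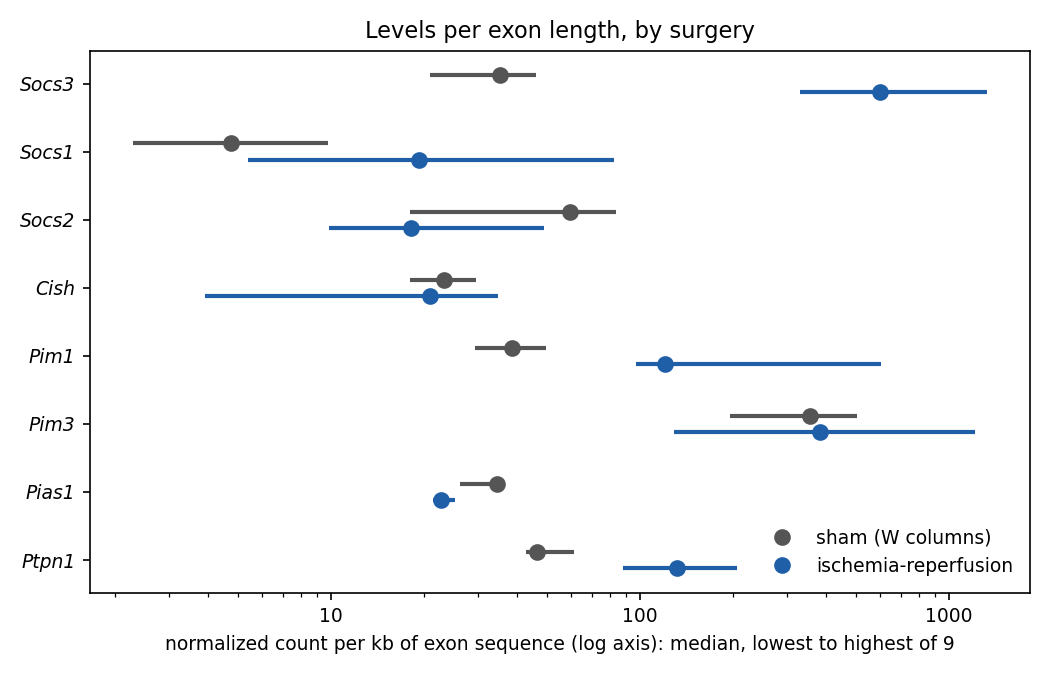
Normalized count per kilobase of exon sequence (log axis), with points at the median and lines from the lowest to the highest of 9 libraries, by surgery. Socs3 moves from 35.3 to 601 per kilobase and passes Pim3, while Socs2 moves from 59.5 to 18.2.

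The makeup of the 4 SH2-containing members changed accordingly. Of the summed per-kilobase level of Socs1, Socs2, Socs3 and Cish, Socs3 made up a median of 29.4% (17.1% to 43.5%) in sham and 91.2% (87.5% to 93.5%) after ischemia-reperfusion. Socs2 made up 46.8% in sham and 2.58% after ischemia-reperfusion. Socs2 was the highest of the 4 in 8 of 9 sham libraries, and Socs3 in all 9 ischemia-reperfusion libraries. The share of Socs1 was 3.33% and 3.31%, while the sum of the 4 went from a median of 123 to 643 per kilobase.

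Whether related members differed from each other in their response was tested on their log2 ratio within each library, in which the scaling cancels, for 3 pairs. The Socs3 to Socs1 ratio rose by 1.84, from a mean of 2.89 ± 0.85 (SD, n = 9) to 4.73 ± 0.65, and all 9 ischemia-reperfusion libraries lay above the sham range (exact permutation p = 4.11e-05, adjusted over the 3 pairs 6.17e-05). The Pim1 to Pim3 ratio rose by 1.71, from -2.66 ± 0.36 to -0.94 ± 0.57 (SD, n = 9), again with all 9 above the sham range (exact permutation p = 4.11e-05, adjusted 6.17e-05). The Socs2 to Cish ratio fell by 1.08, from 1.71 ± 0.60 to 0.63 ± 0.87 (SD, n = 9), with 5 of 9 ischemia-reperfusion libraries below the sham range (exact permutation p = 0.00921, adjusted 0.00921). Over the libraries without Y-linked reads this last difference was -0.99, with an exact permutation p adjusted over the 3 pairs of 0.05, and no longer passed.

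Within the ischemia-reperfusion group, several members were high in the same libraries. IR5 and IR8, which had both Xist and Y-linked reads, were the 2 highest libraries for 5 of the 8 members (Socs3, Socs1, Pim1, Pim3 and Ptpn1). The share of all tested genes with this pattern was not computed, so the count is no result about the members. Summed neutrophil, Kupffer cell and erythroid markers were also highest in IR8, while hepatocyte markers were highest in IR6 and B cell markers in IR9. How many other gene pairs correlate as closely as those below was not computed either. Socs3 and Socs1 correlated across the 9 libraries with Pearson r = 0.91 (permutation p = 0.000595, adjusted over the 8 relations computed 0.00476) and Spearman rho = 0.88 (permutation p = 0.00308, adjusted 0.0246). Without IR5 and IR8, the libraries farthest from the Socs3 median, r was 0.79 (permutation p = 0.0343, not adjusted). Socs3 and Pim1 had r = 0.80 (permutation p = 0.00484, adjusted 0.0129) and rho = 0.75 (permutation p = 0.0255, adjusted 0.068), and r = 0.57 (permutation p = 0.18) without those 2, so the call rested on those 2 libraries. The 6 libraries with Y-linked reads include IR5 and IR8. Within those 6, r with Socs3 was 0.94 for Socs1 (permutation p = 0.0125) and 0.83 for Pim1 (permutation p = 0.025). Because IR5 and IR8 are kept, these values do not test either relation without them. No value is given for the libraries with Y-linked reads and no Xist, and the 3 without Y-linked reads were too few for a value. Socs2 and Cish had r = 0.47 (permutation p = 0.202, adjusted 0.323) and rho = 0.45 (permutation p = 0.23), and r = 0.48 without IR4 and IR5.

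In the 9 sham libraries none of these relations passed the adjusted threshold. Pearson r was 0.54 for Socs3 with Pim1 (permutation p = 0.131, adjusted 0.262), -0.28 for Socs3 with Socs1 (permutation p = 0.457, adjusted 0.522) and 0.41 for Socs2 with Cish (permutation p = 0.295, adjusted 0.393). The matching Spearman values were 0.63, -0.37 and 0.10 (permutation p = 0.076, 0.336 and 0.81). Leaving out the 2 farthest libraries gave 0.75, -0.63 and -0.38. Whether the relations differ between the surgeries was not tested.

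**Figure D4:**
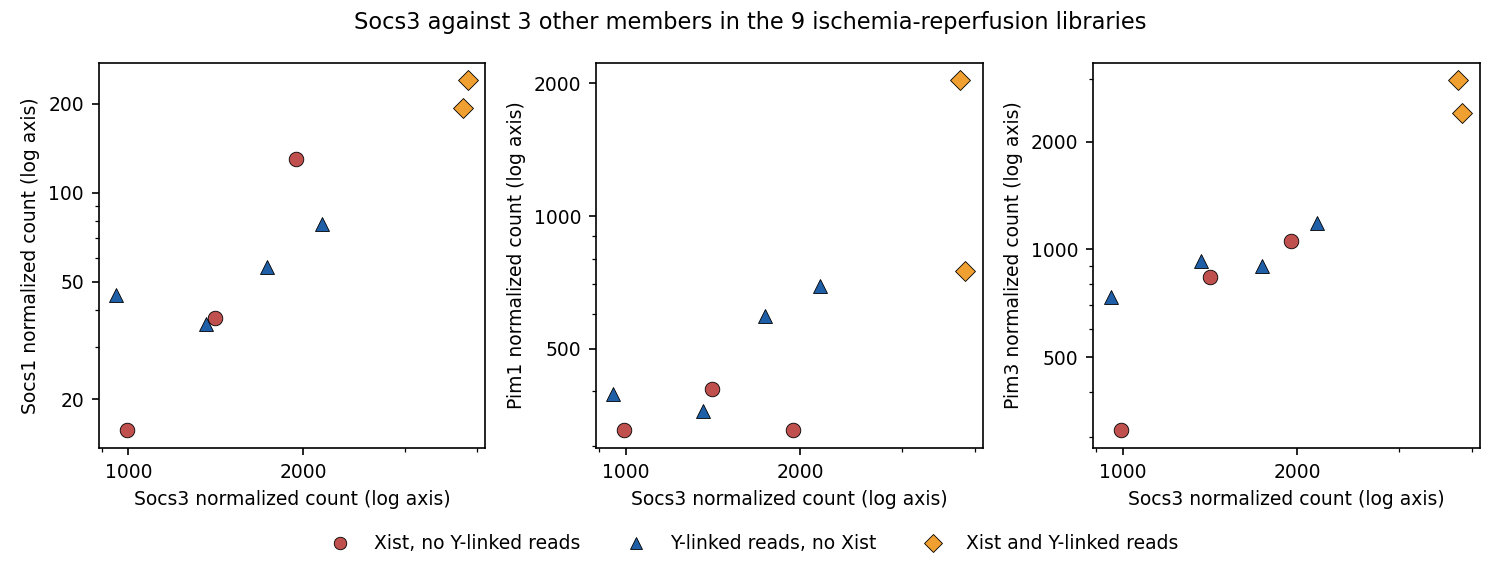
Socs3 against Socs1, Pim1 and Pim3 in the 9 ischemia-reperfusion libraries, both axes normalized counts on a log scale, with symbols by sex-linked transcripts. The 2 diamonds, IR5 and IR8, are at the upper right in each panel, and the other 7 libraries have Socs3 between 952.8 and 2160.

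Tested neutrophil transcripts were higher after ischemia-reperfusion, and their correlation with Socs3 within that group did not pass without IR5 and IR8. S100a8 and S100a9, which encode the calprotectin subunits, went from sham medians of 24.2 and 30.01 to 390.9 and 452.8. The other 7 tested genes of the 12 neutrophil markers had sham medians of at most 8.169 and passed the filter through their ischemia-reperfusion values, so a count of rises says little here. The summed level of the list was 362.3 to 4507 after ischemia-reperfusion and 59.0 to 122.9 in sham. The remaining 3 (Camp, Ltf and Ly6g) were under the filter, and none of the 12 was at 0 in all libraries. The mean log2 level of all 12 markers correlated with Socs3 in the ischemia-reperfusion group by Pearson r (0.86, permutation p = 0.00388, adjusted 0.0129). By Spearman rho it did not pass (0.80, permutation p = 0.0138, adjusted 0.0552). Without IR5 and IR8 r was 0.63 (permutation p = 0.128). In the 6 libraries with Y-linked reads, which include IR5 and IR8, r was 0.83 (permutation p = 0.0528). In sham r was -0.19 (permutation p = 0.615) and rho -0.03 (permutation p = 0.948). Of 9 hepatocyte markers 7 fell and 1 rose, with a summed level of 532700 to 890500 after ischemia-reperfusion against 1932000 to 2342000 in sham. Of 9 Kupffer cell markers 8 fell and 1 rose. All 4 B cell markers fell, as did all 5 tested of 10 T and NK cell markers. Of 7 monocyte markers 5 rose and 1 fell, of 5 cholangiocyte markers 4 rose, of 7 sinusoidal endothelial markers 5 fell and 1 rose, and of 6 stellate cell markers 3 rose and 3 fell. Of 5 erythroid genes 1 fell. These counts stand beside 38.3% of all tested genes called higher and 37.7% lower. The part of these shifts in the members' changes was not tested.

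By likeness of pattern, the genes nearest to Socs3 were Wsb2 (r = 0.891), which encodes another SOCS box protein, Arhgdib (r = 0.885) and the member Pim3 (r = 0.884). Likeness was the Pearson r of log2 values over 18 libraries after subtracting each surgery's mean, among 8233 genes with a mean of at least 100. Nearest to Socs2 were Hsd17b6 (0.794), Rbm18 (0.766) and Rbm25 (0.762). Nearest to Pim1 were Hspa1b (0.924), a heat shock gene with a near-identical copy that makes its count uncertain, Pfkl (0.903) and Snx18 (0.898). For Pim1 the likeness lay in the ischemia-reperfusion libraries, where r to Hspa1b was 0.968 against 0.317 in sham. These are descriptions over libraries that share sex-linked and cell-type differences.

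The ligands that feed this pathway were mostly scarce. Of 18 ligand genes 7 passed the filter, of which 5 rose and 2 fell, beside 38.3% of all tested genes called higher and 37.7% lower. Most of those that rose, Clcf1 and Osm among them, had sham medians of at most 7.342. They passed the filter through their ischemia-reperfusion values, so a count of rises says little here. Clcf1, a gp130-type cytokine, had a median of 7.342 in sham and 180.0 after ischemia-reperfusion (log2 fold change 4.50 ± 0.35 SE, limma adjusted p = 3.96e-10). Osm, encoding oncostatin M, had sham counts of at most 2.309 and a median of 21.5 after ischemia-reperfusion. Il6 was under the filter, with medians of 2.071 and 9.194. Over the libraries without Y-linked reads 4 ligands were tested, of which 2 rose and 2 fell, beside 33.1% of genes called higher and 35.2% lower.

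Among 23 receptor genes 21 were tested, of which 7 rose and 6 fell, shares below the 38.3% and 37.7% of all tested genes. Csf3r, the G-CSF receptor of neutrophils, went from a median of 15.4 to 98.8 (log2 2.61 ± 0.28 SE, limma adjusted p = 4.28e-08), and Il22ra1, the IL-22 receptor subunit, from 15.01 to 60.7 (log2 2.34 ± 0.22 SE, limma adjusted p = 9.49e-09). Of 10 JAK and STAT genes reported here 9 were tested and 6 rose. Stat3, the main activator of Socs3, went from 821.1 to 2846 (log2 1.82 ± 0.07 SE, limma adjusted p = 8.20e-14), and Jak3 from 104.6 to 386.1 (log2 1.95 ± 0.16 SE, limma adjusted p = 1.46e-09). Of these 9, 6 rose also over the libraries without Y-linked reads, beside 33.1% of tested genes called higher. The other 14 feedback genes, from the SOCS, PIAS, PIM and phosphatase families with Usp18 and Sh2b3, changed less than Socs3 did (median log2 fold change 0.35). Among them 8 were called higher and 4 lower, beside 38.3% and 37.7% of all tested genes. Usp18, an interferon feedback gene, fell from 257.4 to 101.4, and Pim2 rose from 21.1 to 43.1.

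The acute phase and interferon lists are read beside 38.3% of all tested genes called higher and 37.7% called lower. Of 21 STAT3 and acute phase genes 20 rose and none fell, Hamp being the exception that did not pass, with a median log2 fold change of 2.60. Over the libraries without Y-linked reads 19 rose, Hamp among them (log2 0.78, limma adjusted p = 0.00248), and Cebpb (adjusted p = 0.669) and Myc (adjusted p = 0.287) did not pass. Lcn2, encoding lipocalin 2, went from 196.1 to 51080, and A2m from 1.036 to 513.5. A2m had sham counts of at most 4.437 and passed the filter through its ischemia-reperfusion values, so its rise says little. Of 15 interferon target genes 10 fell and 2 rose (median -0.86), among them Gbp3, a guanylate-binding protein, from 348.1 to 89.3, and Psmb9, an immunoproteasome subunit, from 403.8 to 162.6. The 2 that rose, Tap1 (log2 0.42) and Rsad2 (log2 1.10), did not pass over the libraries without Y-linked reads (limma adjusted p = 0.283 and 0.144), where 10 fell and none rose, beside 35.2% of genes called lower and 33.1% higher.

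Of 10 STAT5 and growth hormone genes 5 fell and 2 rose over all libraries, beside 37.7% of tested genes called lower and 38.3% higher. Over the libraries without Y-linked reads 9 fell and none rose, beside 35.2% called lower and 33.1% higher. Mup20, a male-biased urinary protein gene, was at 3.12 ± 1.03 (SE, limma adjusted p = 0.00977) on the log2 scale over all libraries and at -1.40 (adjusted p = 0.000112) without Y-linked reads, so its direction reversed. Cux2, a female-biased transcription factor gene, was at -4.22 and -3.19. Of the 2 members named above as STAT5 targets, Socs2 was lower in both sets of libraries. Cish passed in neither (log2 -0.42 and -0.16, limma adjusted p = 0.196 and 0.493). The part of this pathway in the members' values was not tested.

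All 5 SOCS box ligase partners fell (median -0.56), beside 37.7% of tested genes called lower. Eloc, encoding elongin C, went from 1066 to 507.8 (log2 -1.06 ± 0.08 SE, limma adjusted p = 1.61e-10) and Rbx1 from 502.5 to 302.3. Over the libraries without Y-linked reads 4 of the 5 fell, beside 35.2% of genes called lower, and Rnf7 did not pass (log2 -0.22, limma adjusted p = 0.184). Among 4 genes of the insulin receptor arm, on which PTP1B acts, Irs2 and Igf1r rose and Insr and Irs1 fell. Insr did not pass over the libraries without Y-linked reads (log2 -0.18, limma adjusted p = 0.325). Irs2 went from 142.7 to 319.7 and Igf1r from 28.2 to 44.7.

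**Figure D5:**
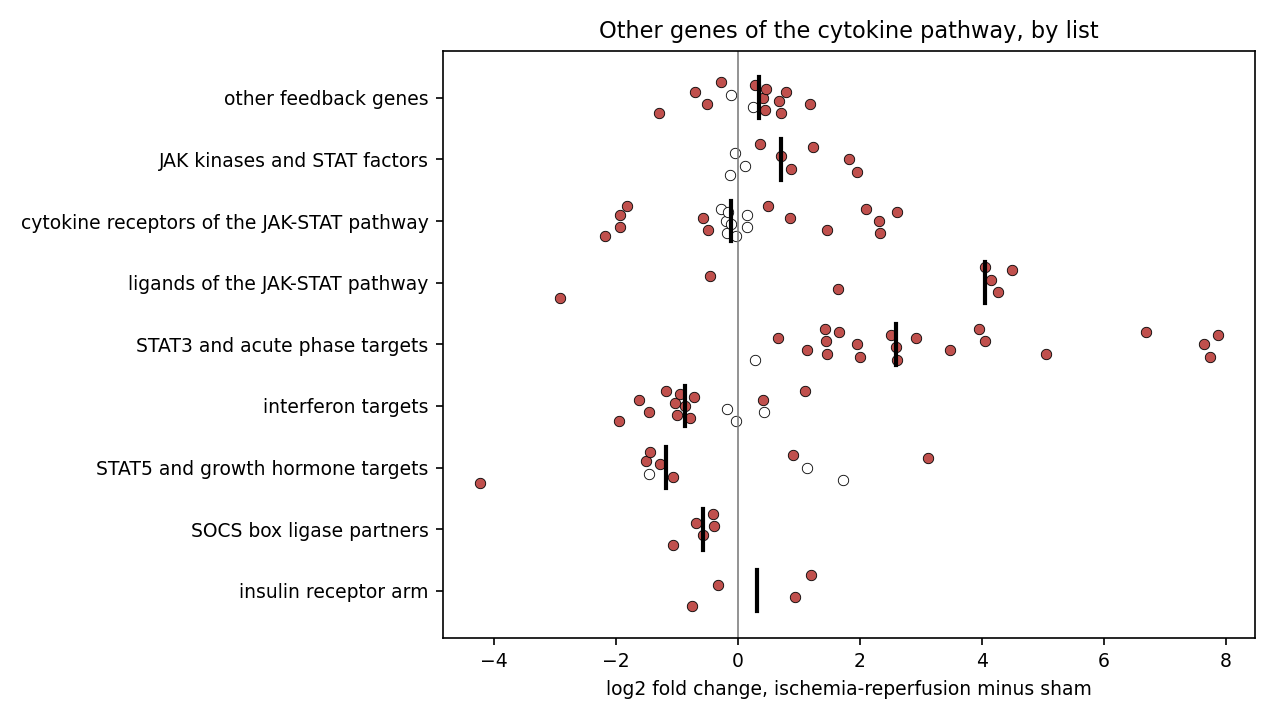
Log2 fold change (ischemia-reperfusion minus sham) of each tested gene of 9 pathway lists, filled where the limma adjusted p is below 0.05, with bars at the list medians. The STAT3 and acute phase genes lie to the right with a median of 2.60, and the interferon and STAT5 lists have medians of -0.86 and -1.17.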

How the data were processed

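Libraries of total liver RNA (Trizol, NEBNext Ultra, per the labels' protocols) were processed with STAR 2.5.0a after Trimmomatic 0.33, on GRCm38, and with DESeq2 1.14, per the submitters' processing notes. The strand setting was not given in the sources used here, nor were the read counter and annotation. The deposited table holds a normalized signal per gene, read counts scaled by a size factor per library, as its name and values show. Within each column every value was a whole multiple of 1 step (100% within 0.01 of a whole read), which gave the read totals. For W1 the step was too near 1 for this recovery to be verified, so count tests used the other 17 columns.

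The main test was limma 3.58.1 (R 4.3.3, trend) on log2(value + 1), since the values are not raw counts, with Benjamini-Hochberg adjustment over genes with a mean of at least 10. Folds are on that scale and understate low genes. Exact permutation tests and correlations used Python 3.11.15 and scipy 1.17.1. Alternatives were edgeR 4.0.16, DESeq2 1.42.0, rank sums, pseudocounts, filters, scalings, library weights and leaving out each library. The fits were tested on simulated data. Symbols came from GENCODE vM21, which paired 47224 of 47729 identifiers.

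The members and lists were chosen with earlier results of these data known. Named genes were all members, the 2 called genes of largest fold in each pathway list, and the 3 nearest genes of Socs3, Socs2 and Pim1. Il6, Hamp, Cebpb, Myc, Tap1, Rsad2, Sh2b3, S100a8, S100a9, Insr, Irs1, Rnf7 and the genes under a filter were named after their values were seen. A gene of the JAK and STAT list is not reported here.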

Additional observations from a re-analysis of the deposited data

Results flagged for a closer look

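Of 16 combinations of a member and a surgery, 3 had a library whose gap to the nearest other was above 0.493 of the group's range. This is the 95% limit of Dixon's test for 9 libraries, which chance passes in about 5% of groups of normally distributed values. Gaps were taken on normalized counts, for which that rate need not hold. On log2 values, the scale of the other tests, the flagged libraries can differ. Socs2 was 468.2 in IR5, with the next ischemia-reperfusion library at 264.4 (gap 0.545 of the range). Pim1 was 2030 in IR8, with the next at 751.7 (gap 0.75). Ptpn1 was 340.2 in the sham library W8, with the next at 284.5 (gap 0.542). IR5 and IR8 are the libraries with both Xist and Y-linked reads, and W8 had the lowest Xist of the sham group (1751). Their part in these values was not tested.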

How the results depend on the processing

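Each of the 8 members was refitted under 30 alternatives. Socs1, Socs2, Socs3, Pim1, Pias1 and Ptpn1 kept their direction and passed the threshold in all 30, and Cish kept its direction and passed in none. Pim3 passed in none, and its log2 fold change was -0.38 over the libraries without Y-linked reads and -0.09 without IR5 and IR8. With each library left out in turn, log2 fold changes ran from 4.06 to 4.31 for Socs3, 2.13 to 2.61 for Socs1, -1.70 to -1.39 for Socs2, -0.54 to -0.15 for Cish, 1.78 to 2.11 for Pim1, 0.11 to 0.52 for Pim3, -0.54 to -0.49 for Pias1 and 1.33 to 1.48 for Ptpn1. On the 17 libraries with recovered reads, edgeR called 4814 genes higher and 4685 lower, and DESeq2 4899 and 4640. The counts of higher and lower genes stayed within 1.5 times of 4860 and 4781 in all 30 alternatives. Of 22 alternatives for each pair, the Socs2 to Cish difference missed the threshold over the libraries without Y-linked reads (-0.99), where only 3 ischemia-reperfusion libraries remain. For correlations with Socs3 in smaller sets of ischemia-reperfusion libraries, the permutation p was not adjusted, unlike that over all 9. Even so, Pim1 without IR5 and IR8 (0.57) was no longer below 0.05. Nor were the neutrophil markers without them (0.63) or in the 6 libraries with Y-linked reads (0.83). Socs1 without IR5 and IR8 had an unadjusted permutation p of 0.0343, and whether it would pass after adjustment was not tested. Fewer libraries enter each, and the cause was not tested further. No paired analysis was possible because the column headers carry no genotype and so no replicate number that identifies a sample. The alternatives that leave out libraries by sex-linked reads were chosen after seeing the data. At 6 to 26 reads in sham, Socs1 is limited by depth.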
